A study of Cucurbita moschata with 6 samples.

Results

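Homeobox genes encode transcription factors that bind DNA through a homeodomain. The genes described here are those of pumpkin (Cucurbita moschata) whose product name in the deposited gene table contains the word homeobox, 128 of 32205 genes. By product name, 26 of them are homeodomain-leucine zipper (HD-Zip) genes of class I, 16 of class II, 14 of class III and 24 of class IV, 17 are knotted-type genes, 15 are WUSCHEL-related genes and 16 are other homeobox genes.

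Transcripts were measured by sequencing poly(A) RNA from seedling hypocotyls, the stem below the cotyledons, in a study of how far-red light affects their elongation. The groups are SR (3 libraries) and SCK (3 libraries), from seedlings with unfolded cotyledons, raised with days of 14 h (28 °C) and nights of 10 h (18 °C). The design has 1 treatment and 1 control, but the labels explain neither name. SCK is read here as the control, because CK is a common short form for a control in agronomy, although far-red exposure of 120 s is given for all 6 libraries, with no intensity and no ratio to red. No genotype beyond the species is given, and pooling of plants is not described. Nothing says that replicates are separate plants either, so the spread behind the p-values may be technical.

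In plants, HD-Zip proteins bind DNA as pairs joined through the leucine zipper. In Arabidopsis, class I is known for responses to water deficit, abscisic acid and light, class II for the response to far-red-rich shade, class III for vascular and upper-side organ identity, and class IV for the epidermis. Knotted-type (KNOX) proteins act in meristems and stems together with partners of the BELL family, and WUSCHEL-related (WOX) proteins act in stem cell niches such as the cambium.

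Deposited counts summed to between 52300725 and 72356397 per library, and the homeobox genes held 361677 to 460084 of them. Levels are in FPKM, fragments per kilobase of transcript, scaled to the fragments mapped in each library. Differences are log2 fold changes ± SE of SR over SCK from edgeR's quasi-likelihood test with TMM scaling, and every adjusted p is from that test with Benjamini-Hochberg adjustment over all 23509 genes tested, unless another tool is named. Over all tested genes, the log2 fold change had a median of 0.01 under TMM scaling and 0.14 under scaling by library totals. In bulk tissue, fewer cells of a type and less RNA per cell cannot be told apart. Leaf and cotyledon markers (antenna proteins and the Rubisco small subunit) fell in 10 of 26 tested cases and rose in 0, and their summed level was 7938 to 9835 FPKM in SR libraries and 9754 to 16183 FPKM in SCK libraries, highest in SCK replicate 1 and, within SCK, lowest in replicate 2. Xylem markers rose in 4 of 15 tested cases and fell in 0, with sums of 98.3 to 149 FPKM in SR libraries and 68.7 to 84.2 FPKM in SCK libraries. This list was matched by product name and takes in every gene named laccase, without a check of the tissue of each. Epidermis and cuticle markers, also matched by name and with every non-specific lipid-transfer protein among them, rose in 2 of 47 and fell in 0. Their sums were 1780 to 2759 FPKM in SR and 1205 to 2149 FPKM in SCK. Of 17 shoot apex markers, 1 of which (SHOOT MERISTEMLESS-like) is itself a homeobox gene described below, 5 were tested and edgeR called 0, with sums of 23.3 to 40.2 FPKM in SR and 24.3 to 48.0 FPKM in SCK, while 7 of them, 5 named CUP-SHAPED COTYLEDON 2-like, had a count of 0 in every library. The tested ones had no unadjusted p under 0.05, and neither DESeq2 nor limma called any. Root markers were called by edgeR in 0 of 4 tested cases (1 at an unadjusted p under 0.05, 1 called by DESeq2 and 0 by limma), with sums of 48.4 to 55.3 FPKM in SR and 39.7 to 53.4 FPKM in SCK. Beside these marker counts, 7.20% of all tested genes rose and 7.16% fell at an adjusted p under 0.05. The part of these cell types in the results below was not tested.

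Of the 128 homeobox genes, 92 reached 1 FPKM in at least 3 libraries and were tested. Among these, 7 rose and 6 fell at an adjusted p under 0.05. That is 14.1% of the tested homeobox genes, against a background of 14.4% of all tested genes (7.20% rose and 7.16% fell), so the share called was close to that of all genes. Of the 92, 7 were called with a difference of at least 2-fold, as were 6.17% of all tested genes. The median log2 fold change of the 92 was -0.06 (0.07 with library totals in place of TMM) and their median absolute change 0.24, against 0.33 over all tested genes. SR and SCK values did not overlap in 28 of the 92 genes (30.4%), against 40.6% of all tested genes. The 36 genes left untested included 11 with a count of 0 in every library, and the highest single value among the 36 was 2.26 FPKM. Of the 92 tested genes 2, an ATHB-20-like and an ATHB-12-like gene, passed the filter through SR libraries alone.

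**Figure D1:**
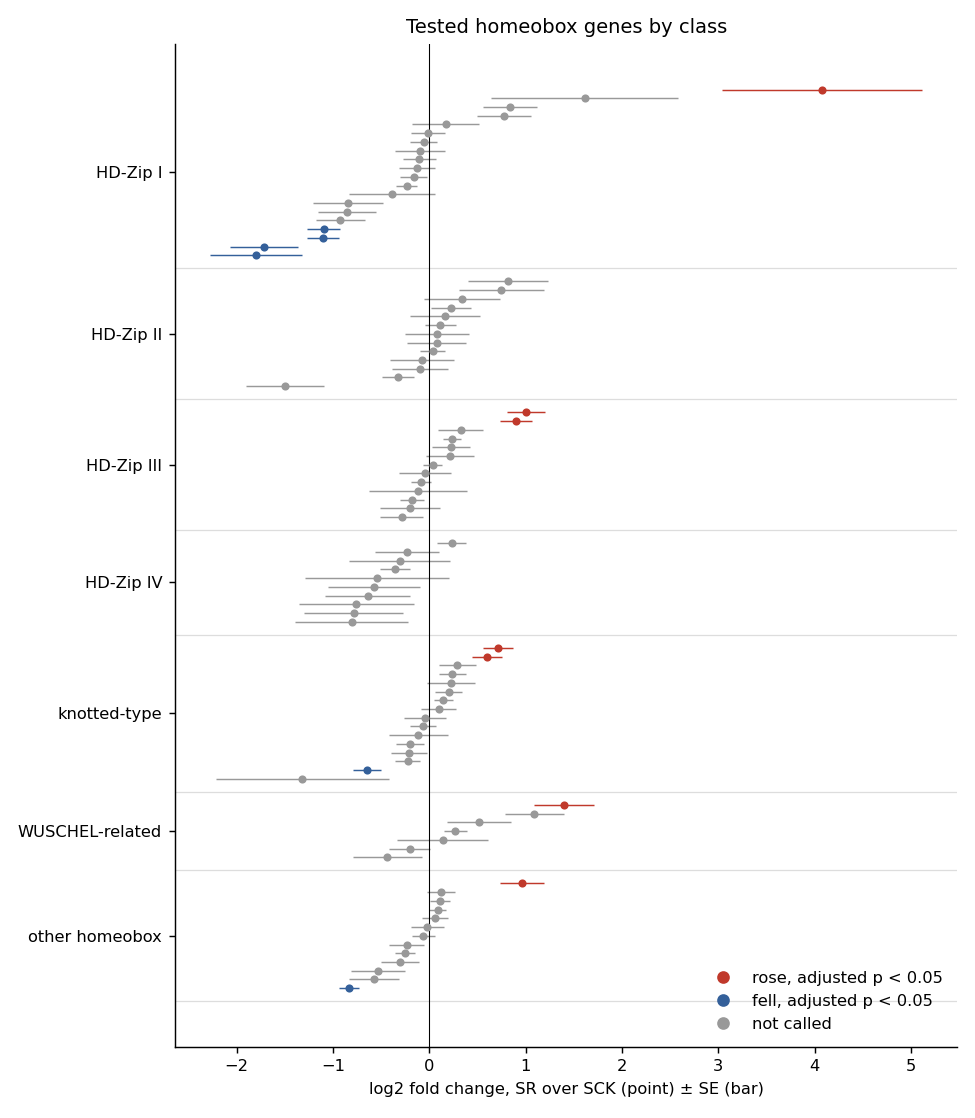
Log2 fold change of SR over SCK (horizontal axis, point with SE as bar) for the 92 tested homeobox genes, ordered by size within each class from top to bottom. The 7 red points rose, the 6 blue points fell, and the grey points were not called; in HD-Zip classes II and IV every point is grey.

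Calls by class stand beside the shares over all tested genes, of which 7.20% rose and 7.16% fell. At these shares a class of this size would hold few calls, so a count of 0 does not show absence of change. Class I had 1 rise and 4 falls among 20 tested genes, class III 2 rises among 13, the knotted-type genes 2 rises and 1 fall among 16, the WUSCHEL-related genes 1 rise among 7 and the other homeobox genes 1 rise and 1 fall among 13. In class II, 0 of 13 tested genes were called, with 1 at an unadjusted p under 0.05, 1 called by DESeq2 and 0 by limma. In class IV, 0 of 10 were called, with 0 at an unadjusted p under 0.05 and 0 called by DESeq2 or limma. The median log2 fold change was -0.14 in class I, 0.08 in class II, 0.03 in class III, -0.56 in class IV, 0.03 among knotted-type genes, 0.27 among WUSCHEL-related genes and -0.06 among the other homeobox genes, where it turned positive (0.06) with library totals. In class I it was -0.007 with library totals, with 10 positive and 10 negative values, against 5 and 15 under TMM. In fits without 1 library, the class IV median ran from -0.88 without SR replicate 2 to -0.24 without SCK replicate 1. The medians near 0 changed sign, in class II without SR replicate 3 (-0.07) or SCK replicate 1 (-0.02), in class III without SCK replicate 1 (-0.01) and among knotted-type genes without SR replicate 1 (-0.09) or SCK replicate 1 (-0.02). Differences between classes were not tested.

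**Figure D2:**
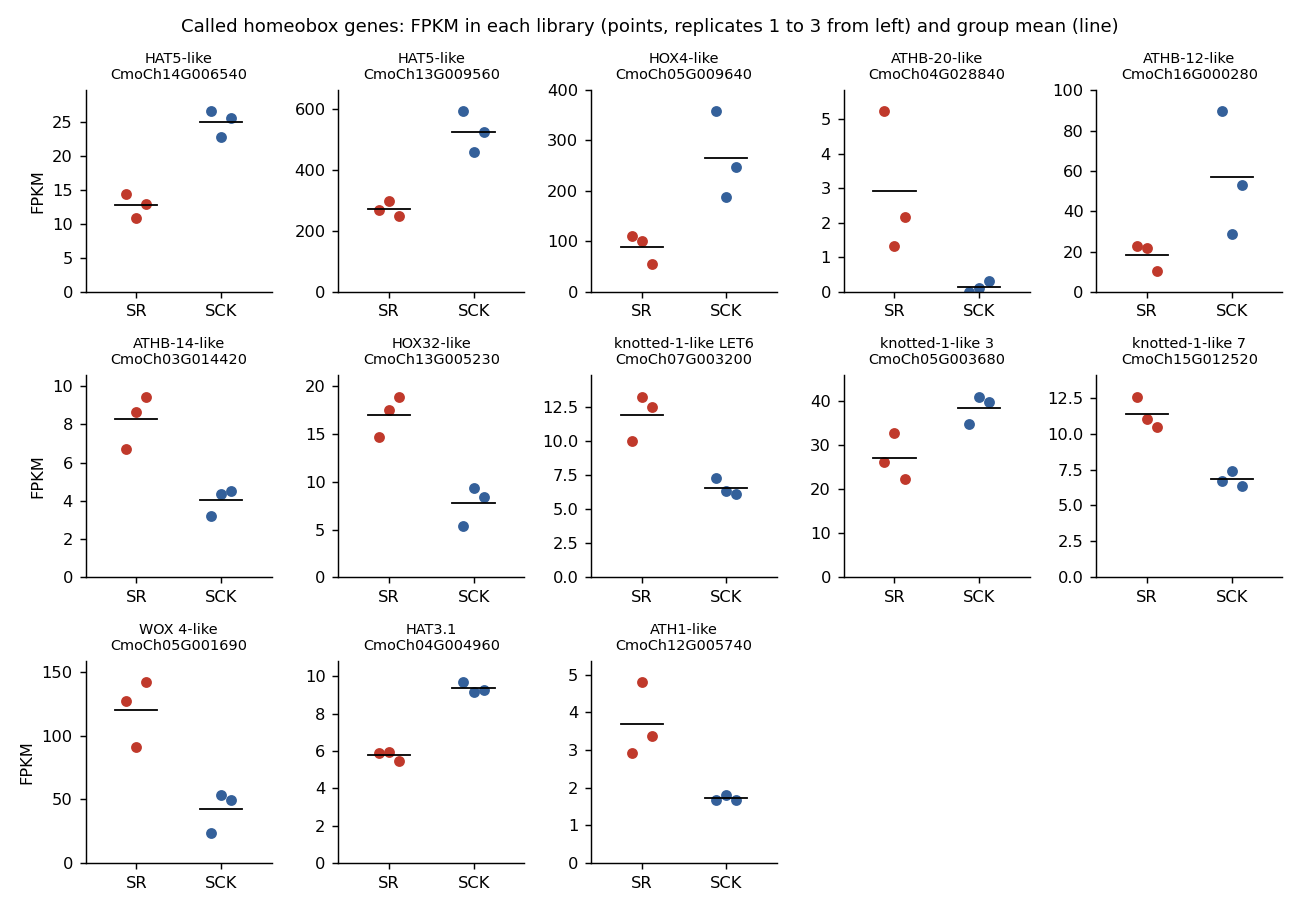
FPKM of each of the 13 called homeobox genes in the 3 SR libraries (red, left) and the 3 SCK libraries (blue, right), with the group mean as a line and the axis from 0. In every panel the SR points lie on one side of the SCK points; for ATHB-12-like the closest values are 22.8 FPKM in SR and 28.8 FPKM in SCK.

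Class I was the most abundant class, with falls in 2 genes named HAT5-like, in HOX4-like and in ATHB-12-like. The HAT5-like falls had the smallest adjusted p-values of the class and the HOX4-like and ATHB-12-like falls the larger sizes. HAT5 is the Arabidopsis protein also called ATHB-1. Summed over its 26 genes, class I stood at 1850, 1611 and 1601 FPKM in SR replicates 1, 2 and 3 and at 2227, 2125 and 2190 FPKM in SCK replicates 1, 2 and 3. It made up 45.9% to 51.4% of the summed homeobox FPKM in SR libraries and 56.1% to 61.0% in SCK libraries, ranges that did not overlap. Nor did those of the knotted-type genes (17.7% to 18.9% in SR, 14.5% to 16.0% in SCK). Their summed FPKM did overlap, however, at 576 to 659 FPKM in SR and 529 to 606 FPKM in SCK. WUSCHEL-related shares did not overlap (7.17% to 10.3% in SR, 3.74% to 6.25% in SCK), while the sums did (231 to 359 FPKM in SR, 137 to 237 FPKM in SCK). The shares of a library sum to 100%, so a lower share of 1 class raises the others.

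**Figure D3:**
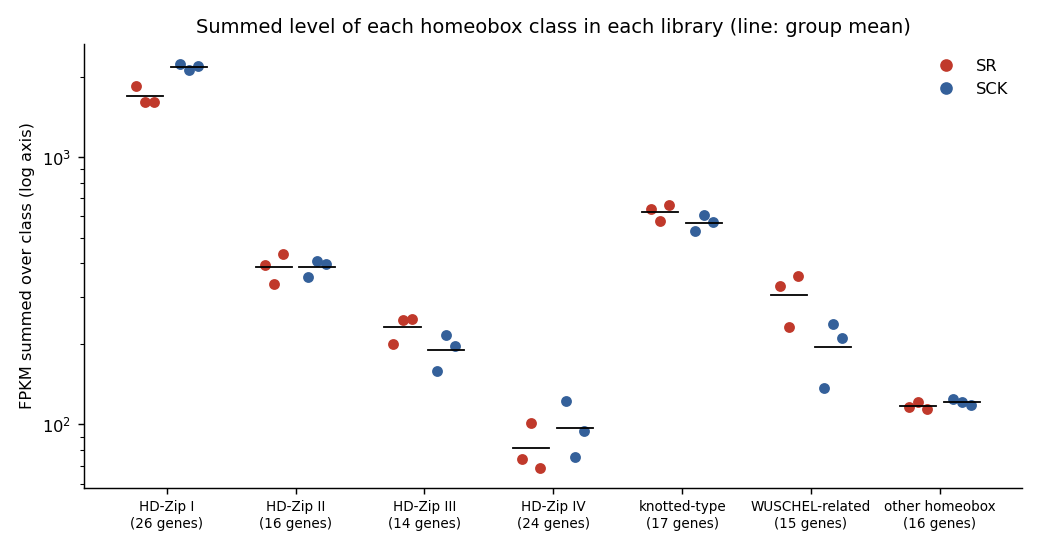
FPKM summed over all genes of each homeobox class (vertical log axis) in the 3 SR libraries (red, left) and the 3 SCK libraries (blue, right), with group means as lines. Class I is highest, with 1601 to 1850 FPKM in SR and 2125 to 2227 FPKM in SCK, and the WUSCHEL-related sum ranges from 231 to 359 FPKM in SR and from 137 to 237 FPKM in SCK.

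The HAT5-like gene CmoCh13G009560 (chromosome 13, 8306478 to 8308785, minus strand, positions as in the deposited table) had the highest mean of all homeobox genes over the 6 libraries and over SCK, while in SR both leading ATHB-6-like genes averaged more. It stood at 267, 298 and 249 FPKM in SR replicates 1, 2 and 3 and at 593, 459.7 and 525 FPKM in SCK replicates 1, 2 and 3. All SR values lay below all SCK values, and it fell by 1.10 ± 0.17 on the log2 scale (adjusted p = 0.0144). The call was lost without SR replicate 3 (adjusted p = 0.0609) or SCK replicate 3 (0.0831). A second HAT5-like gene, CmoCh14G006540 (chromosome 14, 3312300 to 3313587), had 14.4, 10.9 and 12.9 FPKM in SR libraries and 26.6, 22.8 and 25.6 FPKM in SCK libraries. It fell by 1.11 ± 0.17 (adjusted p = 0.0142), a call lost without SR replicate 3 (0.0580) or SCK replicate 3 (0.0793). It shares 841 bp of its span with a gene on the other strand that had a log2 fold change of 0.15 (adjusted p = 0.470), and the sources used here do not say whether counting used strand. The other 5 genes named HAT5 or HAT5-like had log2 fold changes between -0.23 and 0.17 and adjusted p-values of 0.191 to 0.967. Of these, 2 lie in tandem on chromosome 11, 391 bp apart. The most abundant of the 5, CmoCh04G028450, averaged 91.7 ± 10.3 FPKM in SR and 97.9 ± 4.27 FPKM in SCK (SD, n = 3 each), and its values overlapped between groups. Summed over the 7 genes, the HAT5 level was 486 ± 21.3 FPKM in SR and 752 ± 68.6 FPKM in SCK (SD, n = 3 each).

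HOX4-like (CmoCh05G009640, chromosome 5, 7757926 to 7758980), named after a rice class I protein, fell by 1.71 ± 0.35 (adjusted p = 0.0262). Its values were 111, 101 and 54.5 FPKM in SR replicates 1, 2 and 3 and 357, 188 and 247 FPKM in SCK replicates 1, 2 and 3. SCK replicate 1 was the highest library and SR replicate 3 the lowest. The call was lost without SR replicate 2 (adjusted p = 0.0604), SR replicate 3 (0.0730), SCK replicate 1 (0.0544) or SCK replicate 3 (0.0928). ATHB-12-like (CmoCh16G000280, chromosome 16, 137218 to 139128) bears the name of an Arabidopsis factor induced by water deficit and abscisic acid. It had 22.8, 21.6 and 10.5 FPKM in SR libraries and 89.6, 28.8 and 53.3 FPKM in SCK libraries, and it fell by 1.80 ± 0.48 (adjusted p = 0.0490). The SCK libraries differed among themselves more than SCK replicate 2 differed from SR replicate 1. Of the edgeR fits that left out 1 library, the one without SCK replicate 2 kept the call (0.0400), and the fits without SR replicate 1, 2 or 3 or SCK replicate 1 or 3 lost it (0.0664, 0.0988, 0.138, 0.0996 and 0.130). It was also lost with library totals in place of TMM (0.0509), by limma (0.0620, or 0.0639 with a pseudocount of 0.1) and without the filter on low values (0.0537). In both genes the SCK libraries stood in the order replicate 1, 3, 2 from high to low, the order of the leaf and cotyledon markers given above. SCK replicate 3 lay between replicates 1 and 2, in either direction, in 57.7% of all tested genes. A link of these genes to the markers was not tested.

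The 1 class I rise was ATHB-20-like (CmoCh04G028840, chromosome 4, 20528681 to 20529969). It had 5.22, 1.33 and 2.18 FPKM in SR replicates 1, 2 and 3, against a count of 0 in SCK replicate 1 and 0.122 and 0.326 FPKM in SCK replicates 2 and 3. The SCK values rest on 8 and 25 deposited counts, and 1 read pair may be worth 4 of these. As SCK values lay below 1 FPKM, the gene could enter the test only by being higher in SR. The log2 fold change was 4.07 ± 1.04 (adjusted p = 0.0448), and the adjusted p was 0.0561 to 0.108 in the 6 fits without 1 library (0.0844, 0.0579 and 0.105 without SR replicates 1, 2 and 3 and 0.0561, 0.108 and 0.0964 without SCK replicates 1, 2 and 3) and 0.0549 with no filter on low values. Its namesake CmoCh15G002960 averaged 3.07 ± 1.98 FPKM in SR and 3.71 ± 0.198 FPKM in SCK (SD, n = 3 each; adjusted p = 0.582). Without SR replicate 1, CmoCh15G002960 was called with a log2 fold change of -1.11 (adjusted p = 0.0292). The ATHB-12-like gene CmoCh18G013710, the other one that entered through SR libraries, averaged 1.48 ± 0.518 FPKM in SR and 0.439 ± 0.387 FPKM in SCK (SD, n = 3 each; adjusted p = 0.288).

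Genes named ATHB-6-like, after an Arabidopsis factor that restrains abscisic acid responses, were the other abundant class I genes. CmoCh07G005630 had 605, 402 and 426 FPKM in SR replicates 1, 2 and 3 and 169.7, 325 and 276 FPKM in SCK replicates 1, 2 and 3. CmoCh03G008670 had 323, 209.8 and 319 FPKM in SR libraries and 368, 606 and 513 FPKM in SCK libraries. In each gene the groups did not overlap, and the log2 fold changes were 0.78 ± 0.28 and -0.93 ± 0.25 (adjusted p = 0.105 and 0.0537, and 0.0287 and 0.00212 by DESeq2). The ratio of CmoCh03G008670 to CmoCh07G005630 was 0.533, 0.521 and 0.749 in SR replicates 1, 2 and 3, against 2.17, 1.86 and 1.86 in SCK replicates 1, 2 and 3, so the more abundant member of the pair was a different one in each group. The sum over all 3 ATHB-6-like genes was 852 ± 144 FPKM in SR and 841 ± 188 FPKM in SCK (SD, n = 3 each), with overlapping values. The sources used here do not say how reads shared by near-identical copies were assigned, so levels of single copies are uncertain.

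Of the remaining class I genes, ATHB-5-like (CmoCh01G016690) averaged 7.94 ± 2.10 FPKM in SR and 4.01 ± 0.933 FPKM in SCK (adjusted p = 0.0898, and 0.0329 by DESeq2). HOX5-like (CmoCh18G000980) averaged 46.5 ± 4.95 FPKM in SR and 76.0 ± 30.5 FPKM in SCK (adjusted p = 0.0976, and 0.0264 by DESeq2). ATHB-7 (CmoCh14G021960), in Arabidopsis a close relative of ATHB-12, averaged 3.83 ± 2.09 FPKM in SR and 6.22 ± 1.34 FPKM in SCK (adjusted p = 0.156). These 3 means have SD over n = 3 libraries in each group, and the genes were picked with their values known. Without SR replicate 2, ATHB-7 was called with a log2 fold change of -1.36 (adjusted p = 0.0363). Without SCK replicate 2, HOX5-like was called with one of -1.11 (adjusted p = 0.0487). The 2 ATHB-13-like genes had log2 fold changes of -0.16 and -0.13, with values that overlapped between groups. The 6 untested class I genes, 3 named ATHB-22-like, 2 ATHB-51 and 1 ATHB-40-like, did not exceed 2.26 FPKM in any library.

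**Figure D4:**
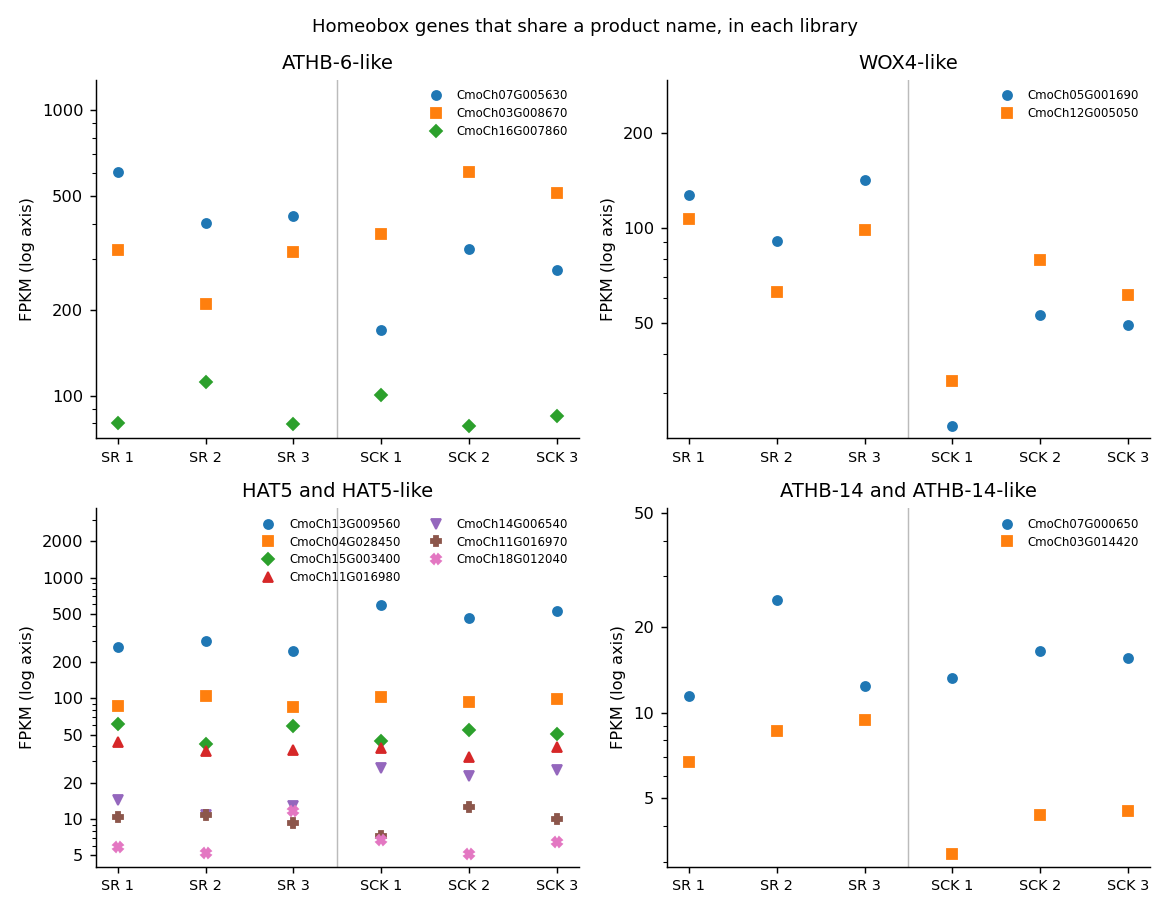
FPKM (vertical log axis) of homeobox genes that share a product name, in SR replicates 1 to 3 (left of the grey line) and SCK replicates 1 to 3 (right of it). Of the 2 most abundant ATHB-6-like genes, CmoCh07G005630 is the higher one in each SR library (402 to 605 FPKM) and CmoCh03G008670 in each SCK library (368 to 606 FPKM).

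Class II holds HAT4, known in Arabidopsis also as ATHB-2 and for a rapid rise under light rich in far-red. HAT4 (CmoCh16G011730) had 36.8, 29.7 and 53.1 FPKM in SR replicates 1, 2 and 3 and 21.5, 46.7 and 36.1 FPKM in SCK replicates 1, 2 and 3. HAT4-like (CmoCh06G008190) had 44.4, 51.0 and 73.8 FPKM in SR libraries and 26.4, 67.8 and 52.8 FPKM in SCK libraries. In each gene the groups overlapped, SCK replicate 1 was the lowest library, and the log2 fold change was 0.08 ± 0.31 and 0.08 ± 0.33 (adjusted p = 0.890 and 0.894). Both were picked with their values known.

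HOX11-like (CmoCh01G002170, chromosome 1, 961002 to 963178) had the smallest adjusted p of class II. It stood at 21.3, 28.3 and 12.4 FPKM in SR replicates 1, 2 and 3 and at 75.8, 31.4 and 50.1 FPKM in SCK replicates 1, 2 and 3. The groups did not overlap, and the log2 fold change was -1.50 ± 0.40 (adjusted p = 0.0512). It was called by DESeq2 (0.00160), without SCK replicate 2 (0.0456) and with counts divided by 4 (0.0487). A HAT3-like gene (CmoCh06G010040), whose Arabidopsis namesake acts with HAT4 in shade responses, had 13.2, 6.77 and 15.7 FPKM in SR libraries and 3.29, 8.23 and 7.16 FPKM in SCK libraries (log2 fold change 0.82 ± 0.41, adjusted p = 0.215). Another HAT3-like gene (CmoCh11G003480) had 45.1, 15.04 and 57.3 FPKM in SR replicates 1, 2 and 3, against 21.5, 20.5 and 22.2 FPKM in SCK libraries. SR replicate 2 lay below every SCK library there, and without that library the gene was called as a rise of 1.14 on the log2 scale (adjusted p = 0.0223, against 0.283 with all libraries). The third HAT3-like gene (CmoCh14G022130) had 8.31, 19.7 and 23.2 FPKM in SR libraries and 17.5, 14.8 and 16.2 FPKM in SCK libraries, with a log2 fold change of -0.08. The other 3 tested HOX11-like genes had log2 fold changes of -0.10 to 0.34 and overlapping groups. The most abundant class II gene was HAT22-like (CmoCh07G006240), with 134, 95.3 and 112 FPKM in SR libraries and 116, 136 and 139 FPKM in SCK libraries.

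Class III genes are known from Arabidopsis for the differentiation of vessels and the upper side of organs. Of 13 tested, 2 rose and 0 fell, against 7.20% and 7.16% of all tested genes. ATHB-14-like (CmoCh03G014420, chromosome 3, 10443739 to 10449183), named after the protein also called PHABULOSA, had 6.72, 8.64 and 9.45 FPKM in SR replicates 1, 2 and 3 and 3.19, 4.38 and 4.53 FPKM in SCK replicates 1, 2 and 3. It rose by 0.90 ± 0.17 (adjusted p = 0.0216), a call lost without SR replicate 2 (0.0504), SR replicate 3 (0.0791) or SCK replicate 3 (0.0868). HOX32-like (CmoCh13G005230, chromosome 13, 6138496 to 6146102), named after a rice class III protein, had 14.7, 17.5 and 18.9 FPKM in SR libraries and 5.38, 9.41 and 8.44 FPKM in SCK libraries. It rose by 1.01 ± 0.20 (adjusted p = 0.0228), a call lost without SR replicate 2 (0.0517), SR replicate 3 (0.0824) or SCK replicate 3 (0.0913). In each of these genes SCK replicate 1 was the lowest library and SR replicate 3 the highest.

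The other 11 class III genes were not called. ATHB-14 (CmoCh07G000650), the namesake on chromosome 7, had 11.4, 24.7 and 12.4 FPKM in SR libraries and 13.2, 16.4 and 15.6 FPKM in SCK libraries (adjusted p = 0.924). The ratio of ATHB-14 to ATHB-14-like was 1.69, 2.86 and 1.31 in SR libraries and 4.13, 3.75 and 3.44 in SCK libraries. ATHB-15-like (CmoCh08G006920), the most abundant class III gene and named after a vascular factor also called CORONA, had 40.1, 44.8 and 46.3 FPKM in SR libraries and 36.8, 41.2 and 38.6 FPKM in SCK libraries, with a log2 fold change of 0.03 ± 0.10. The 6 REVOLUTA-like genes had log2 fold changes between -0.29 and 0.33 and adjusted p-values of 0.141 to 0.897. Of these, 2 pairs lie side by side on opposite strands and overlap by 1351 bp on chromosome 12 and 62 bp on chromosome 13. Reads within these overlaps cannot be told apart if strand was not used. ATHB-8 (CmoCh01G014910), an early marker of forming veins in Arabidopsis, averaged 22.9 ± 1.64 FPKM in SR and 23.7 ± 3.86 FPKM in SCK (SD, n = 3 each).

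LITTLE ZIPPER proteins pair with class III proteins and keep them from binding DNA. Of the 6 tested genes matched for them, 1 of which is a zinc finger protein of similar symbol (ZPR1) outside that family, edgeR called 0 (1 at an unadjusted p under 0.05, 0 called by DESeq2 or limma). LITTLE ZIPPER 2-like (CmoCh02G015580) averaged 6.07 FPKM in SR and 2.43 FPKM in SCK (adjusted p = 0.127), and the 6 log2 fold changes ran from -0.34 to 1.19. The list of organ polarity factors, KANADI and YABBY among them, had 0 calls by edgeR in 10 tested genes (2 at an unadjusted p under 0.05, 0 called by DESeq2 or limma), with log2 fold changes from -0.81 to 0.69. Of all tested genes 14.4% were called by edgeR, so 0 calls in lists this short do not show that these genes were unchanged.

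Class IV genes, known for the identity of the epidermis, were mostly low. Of 24 genes, 14 were not tested, and 13 of these were below 1 FPKM in each library. MERISTEM L1 (CmoCh03G005500), named after an Arabidopsis factor of the outer shoot cell layer, was among them. It had 0.314, 0.256 and 0.790 FPKM in SR replicates 1, 2 and 3, against 0.0184, 0.0494 and 0.102 FPKM in SCK replicates 1, 2 and 3. These values rest on 74, 68 and 191 deposited counts in SR libraries and 4, 10 and 25 in SCK libraries. Its SCK counts lay below the filter of at least 40 counts in 3 libraries, so under that filter it could be tested only through its SR libraries. It was then called as a rise of 2.82 (adjusted p = 0.0427), while the edgeR fit with no filter tested 22 class IV genes and called 0 of them.

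The most abundant class IV gene was GLABRA 2 (CmoCh01G001120), in Arabidopsis a regulator of hair cells of root and leaf. It had 48.1, 57.0 and 39.9 FPKM in SR replicates 1, 2 and 3 and 59.3, 50.9 and 57.6 FPKM in SCK replicates 1, 2 and 3, with overlapping groups (log2 fold change -0.35 ± 0.16, adjusted p = 0.163). The GLABRA 2-like gene CmoCh08G006730 had 13.9, 11.1 and 7.02 FPKM in SR libraries, against 30.1, 5.38 and 13.2 FPKM in SCK libraries, so the highest and the lowest library were SCK libraries. The ANTHOCYANINLESS 2-like gene CmoCh08G008930, with the next smallest adjusted p of its class (0.328), averaged 2.41 ± 1.53 FPKM in SR and 3.68 ± 1.52 FPKM in SCK (SD, n = 3 each). Of the 10 tested genes, 9 had a negative log2 fold change, also with library totals in place of TMM, and 7 did without SR replicate 1 or SCK replicate 1. With no filter on low values 12 of 22 class IV genes were negative, and with the count filter 10 of 14, while 51.3% of all tested genes were positive. In 1 of the 10 the groups did not overlap, against 40.6% of all tested genes.

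Knotted-type genes of 2 kinds were present, those of KNOX class I (SHOOT MERISTEMLESS, LET6 and knotted-1-like 1, 2 and 6 by their Arabidopsis and tomato namesakes) and those of class II (knotted-1-like 3 and 7). Of 16 tested genes 2 rose and 1 fell, against 7.20% and 7.16% of all tested genes. LET6 (CmoCh07G003200, chromosome 7, 1518538 to 1521889), named after a tomato relative of SHOOT MERISTEMLESS, had 10.0, 13.3 and 12.6 FPKM in SR replicates 1, 2 and 3 and 7.28, 6.39 and 6.12 FPKM in SCK replicates 1, 2 and 3. It rose by 0.71 ± 0.15 (adjusted p = 0.0288), a call lost without SR replicate 2 (0.0675), SR replicate 3 (0.1002), SCK replicate 2 (0.0744) or SCK replicate 3 (0.123). The other LET6 gene (CmoCh11G018800) was more abundant, with 94.8, 63.7 and 80.7 FPKM in SR libraries and 61.9, 77.1 and 65.8 FPKM in SCK libraries, and its groups overlapped (adjusted p = 0.746).

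A knotted-1-like 7 gene (CmoCh15G012520, chromosome 15, 8604183 to 8607980) had 12.6, 11.01 and 10.4 FPKM in SR replicates 1, 2 and 3 and 6.73, 7.41 and 6.34 FPKM in SCK replicates 1, 2 and 3. In Arabidopsis its namesake regulates secondary wall formation. It rose by 0.60 ± 0.15 (adjusted p = 0.0431), and in the fits without SR replicates 1, 2 and 3 and SCK replicates 1, 2 and 3 the adjusted p was 0.0802, 0.0695, 0.0957, 0.0845, 0.0802 and 0.161. Without the filter on low values it was 0.0533. The other knotted-1-like 7 gene (CmoCh02G015310) also had no overlap between groups, with 5.76, 4.43 and 5.23 FPKM in SR libraries and 3.75, 3.83 and 3.93 FPKM in SCK libraries, but it was not called (log2 fold change 0.29 ± 0.19, adjusted p = 0.333).

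The fall was in a knotted-1-like 3 gene (CmoCh05G003680, chromosome 5, 1662445 to 1666791). It had 26.2, 32.8 and 22.3 FPKM in SR libraries and 34.9, 41.0 and 39.8 FPKM in SCK libraries, and it fell by 0.65 ± 0.14 (adjusted p = 0.0303). The call was lost without SR replicate 1 (0.0577), SR replicate 3 (0.0825), SCK replicate 1 (0.0567), SCK replicate 2 (0.0754) or SCK replicate 3 (0.119), with library totals (0.0646) and by limma (0.0699, or 0.0715 with a pseudocount of 0.1). The other 3 genes of that name had log2 fold changes of -0.21 to 0.22.

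The most abundant knotted-type gene was a knotted-1-like 2 gene (CmoCh09G003200), with 153, 149.9 and 197 FPKM in SR libraries and 128, 134 and 134 FPKM in SCK libraries. The groups did not overlap, and the log2 fold change was 0.20 ± 0.14 (adjusted p = 0.369). SHOOT MERISTEMLESS-like (CmoCh03G005800), which in Arabidopsis keeps the shoot meristem undifferentiated, had 15.7, 16.7 and 17.1 FPKM in SR libraries and 13.8, 13.2 and 13.6 FPKM in SCK libraries (log2 fold change 0.14 ± 0.10, adjusted p = 0.359). The gene with the widest spread was knotted-1-like 1 (CmoCh05G010840), whose Arabidopsis namesake shapes the stem. It had 4.61, 2.29 and 8.65 FPKM in SR libraries and 1.21, 20.3 and 14.6 FPKM in SCK libraries, so SCK replicate 1 lay below every SR library and the other SCK libraries above (adjusted p = 0.346).

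BELL proteins pair with KNOX proteins. Of 18 tested genes named BEL1-like homeodomain, 2 rose and 1 fell, against 7.20% and 7.16% of all tested genes, with a median log2 fold change of 0.01. A BEL1-like homeodomain 1 gene (CmoCh02G013450) averaged 18.3 ± 2.23 FPKM in SR and 9.11 ± 2.11 FPKM in SCK (SD, n = 3 each; log2 fold change 0.88 ± 0.19, adjusted p = 0.0277). Another gene of the same name (CmoCh06G005250) averaged 78.7 ± 9.72 FPKM in SR and 101 ± 3.53 FPKM in SCK (SD, n = 3 each) and fell by 0.50 ± 0.12 (adjusted p = 0.0428). BEL1-like homeodomain 7 (CmoCh20G008340) averaged 17.1 ± 1.30 FPKM in SR and 11.96 ± 0.401 FPKM in SCK (SD, n = 3 each) and rose by 0.38 ± 0.09 (adjusted p = 0.0371).

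The BELL protein ATH1, known in Arabidopsis for restraining stem growth at the shoot base, counts among the other homeobox genes by its product name. ATH1-like (CmoCh12G005740, chromosome 12, 3539266 to 3541247) had 2.92, 4.79 and 3.37 FPKM in SR replicates 1, 2 and 3 and 1.68, 1.80 and 1.67 FPKM in SCK replicates 1, 2 and 3. It rose by 0.96 ± 0.23 (adjusted p = 0.0364), a call kept without SR replicate 1 (0.0357) and lost without SR replicate 2 or 3 (0.0803 and 0.0936) or SCK replicate 1, 2 or 3 (0.0783, 0.0806 and 0.136). The more abundant ATH1-like gene CmoCh05G001070 had 15.9, 20.5 and 13.2 FPKM in SR libraries and 29.4, 16.1 and 21.0 FPKM in SCK libraries (log2 fold change -0.58 ± 0.26, adjusted p = 0.173). The ratio of CmoCh05G001070 to CmoCh12G005740 was 5.43, 4.28 and 3.92 in SR libraries and 17.5, 8.95 and 12.6 in SCK libraries, and these ranges did not overlap.

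KNOX proteins are known in several species to raise cytokinin synthesis and to lower gibberellin synthesis in meristems. Of 15 tested genes of cytokinin and gibberellin enzymes, 2 rose and 3 fell, against 7.20% and 7.16% of all tested genes. The cytokinin synthesis gene adenylate isopentenyltransferase 3 (CmoCh08G003550) averaged 50.0 ± 5.78 FPKM in SR and 28.9 ± 2.80 FPKM in SCK (SD, n = 3 each) and rose by 0.65 ± 0.11 (adjusted p = 0.0183). A second adenylate isopentenyltransferase gene (CmoCh15G009510) averaged 3.18 ± 0.686 FPKM in SR and 8.07 ± 0.574 FPKM in SCK (SD, n = 3 each) and fell by 1.47 ± 0.23 (adjusted p = 0.0154). Among gibberellin enzymes, gibberellin 3-beta-dioxygenase 4 (CmoCh04G001450) rose by 1.37 ± 0.14 (adjusted p = 0.0104). Gibberellin 3-beta-dioxygenase 1-like (CmoCh08G006170) fell by 1.54 ± 0.40 and gibberellin 20 oxidase 1-like (CmoCh02G010360) fell by 2.08 ± 0.54 (adjusted p = 0.0457 and 0.0471).

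The 1 WUSCHEL-related rise was in a gene named WUSCHEL-related homeobox 4-like, after the Arabidopsis WOX4 factor that maintains the vascular cambium. CmoCh05G001690 (chromosome 5, 728097 to 729169) had 127, 91.2 and 142 FPKM in SR replicates 1, 2 and 3 and 23.6, 53.1 and 49.3 FPKM in SCK replicates 1, 2 and 3. Every SR library lay above every SCK library, with SCK replicate 1 the lowest, and the gene rose by 1.40 ± 0.31 (adjusted p = 0.0317). The call was lost without SR replicate 1 (0.0608), SR replicate 3 (0.104), SCK replicate 2 (0.0527) or SCK replicate 3 (0.10002). Its namesake CmoCh12G005050 had 107, 62.6 and 98.5 FPKM in SR libraries and 32.8, 79.0 and 61.3 FPKM in SCK libraries, and these overlapped (log2 fold change 0.52 ± 0.33, adjusted p = 0.325). The ratio of CmoCh05G001690 to CmoCh12G005050 was 1.19, 1.46 and 1.44 in SR libraries and 0.720, 0.672 and 0.804 in SCK libraries. The xylem marker sums given above were higher in each SR library than in any SCK library. Groups did not overlap in 40.6% of all tested genes, and a link of WUSCHEL-related homeobox 4-like to the markers was not tested.

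WUSCHEL-related homeobox 8-like (CmoCh09G000490) had 4.44, 8.50 and 8.02 FPKM in SR libraries and 2.04, 3.91 and 2.98 FPKM in SCK libraries. The groups did not overlap, and the log2 fold change was 1.09 ± 0.31 (adjusted p = 0.0582, and 0.00767 by DESeq2, 0.0490 with library totals and 0.0318 without SR replicate 1). It overlaps by 286 bp a gene on the other strand with a log2 fold change of 1.10 (adjusted p = 0.0442). WUSCHEL-related homeobox 13 (CmoCh06G001430) had 10.2, 11.03 and 11.2 FPKM in SR libraries and 7.94, 8.66 and 7.90 FPKM in SCK libraries (adjusted p = 0.169), while the more abundant 13-like gene (CmoCh16G013220) averaged 75.0 ± 19.9 FPKM in SR and 79.1 ± 10.8 FPKM in SCK (SD, n = 3 each). Of the 15 WUSCHEL-related genes 8 were not tested, and 6 of these had a count of 0 in every library. Genes for CLE peptides and CLAVATA receptors, which act with WUSCHEL proteins in meristems, were called by edgeR in 0 of 5 tested cases (1 at an unadjusted p under 0.05, 1 called by DESeq2 and 0 by limma). At the 14.4% called over all tested genes, a list of 5 would hold few calls. CLAVATA2 (CmoCh10G008530) had the smallest adjusted p of the 5 (0.0563), with 12.6 FPKM in SR and 8.16 FPKM in SCK on average.

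HAT3.1 (CmoCh04G004960, chromosome 4, 2479320 to 2489180), a homeodomain protein with a PHD finger, had the smallest adjusted p of all homeobox genes. It had 5.89, 5.96 and 5.48 FPKM in SR replicates 1, 2 and 3 and 9.68, 9.17 and 9.25 FPKM in SCK replicates 1, 2 and 3. The spread within each group was small beside the difference, and it fell by 0.84 ± 0.10 (adjusted p = 0.0118). It was the 1 homeobox call kept without SR replicate 3 (0.0426), and it was lost without SCK replicate 3 (0.0749). Its namesake HAT3.1-like (CmoCh16G003550) had 5.79, 6.42 and 7.08 FPKM in SR libraries and 4.65, 7.28 and 5.94 FPKM in SCK libraries (adjusted p = 0.946). The chromatin-associated genes of this group, named RLT, LUMINIDEPENDENS and nodulin homeobox, had log2 fold changes between -0.31 and 0.12 and were not called. Outside the homeobox names, 1 of 14 tested zinc-finger homeodomain genes fell and 0 rose, against 7.16% and 7.20% of all tested genes. That fall was in the 11-like gene CmoCh18G011730 (4.59 ± 0.864 FPKM in SR and 9.16 ± 2.43 FPKM in SCK, SD, n = 3 each). Its log2 fold change was -1.14 ± 0.27 (adjusted p = 0.0370). Of 6 further genes named homeodomain, edgeR called 0, beside 14.4% of all tested genes (1 at an unadjusted p under 0.05, 0 called by DESeq2 or limma).

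Names held by at least 2 tested homeobox genes, without a 0 in any library, numbered 26. In 11 of these the ratio of the 2 most abundant namesakes did not overlap between SR and SCK, beside 40.6% of all tested genes whose own levels did not overlap. That share is for levels of single genes, and none was computed for ratios of other gene pairs. The largest shift of a namesake ratio on the log2 scale was that of ATHB-6-like. There the mean log2 ratio of CmoCh03G008670 to CmoCh07G005630 was -0.75 ± 0.29 in SR and 0.97 ± 0.13 in SCK (SD, n = 3 each). These ratios were not tested.

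The libraries of each group differed among themselves in many homeobox genes. SCK replicates 1 and 2 differed at least 2-fold in 22 of the 92 tested genes, and SCK replicate 3 lay between them in 19 of these 22 and in 66 of all 92. SR replicates 1 and 2 differed as much in 17 of the 92, with SR replicate 3 between them in 12 of the 17 and in 38 of the 92. Over all tested genes, differences of at least 2-fold between replicates 1 and 2 were found in 11.4% in SR and 11.7% in SCK. Among those, replicate 3 lay between the other 2 in 1973 of 2681 genes in SR and 2384 of 2760 in SCK. Whatever the size of the difference, it lay between them in 42.6% of all tested genes in SR and 57.7% in SCK. Without SCK replicate 3, edgeR called 0 rises and 0 falls (18 of the 92 had an unadjusted p under 0.05), DESeq2 6 rises and 8 falls, and limma 0 and 0. Without SR replicate 3, edgeR called 0 rises and 1 fall. Leaving out SR replicate 1 gave 5 rises and 5 falls, and leaving out SR replicate 2 gave 2 rises and 5 falls. With SCK replicate 1 removed there were 4 rises and 3 falls, and with SCK replicate 2 removed 2 rises and 7 falls.

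**Figure D5:**
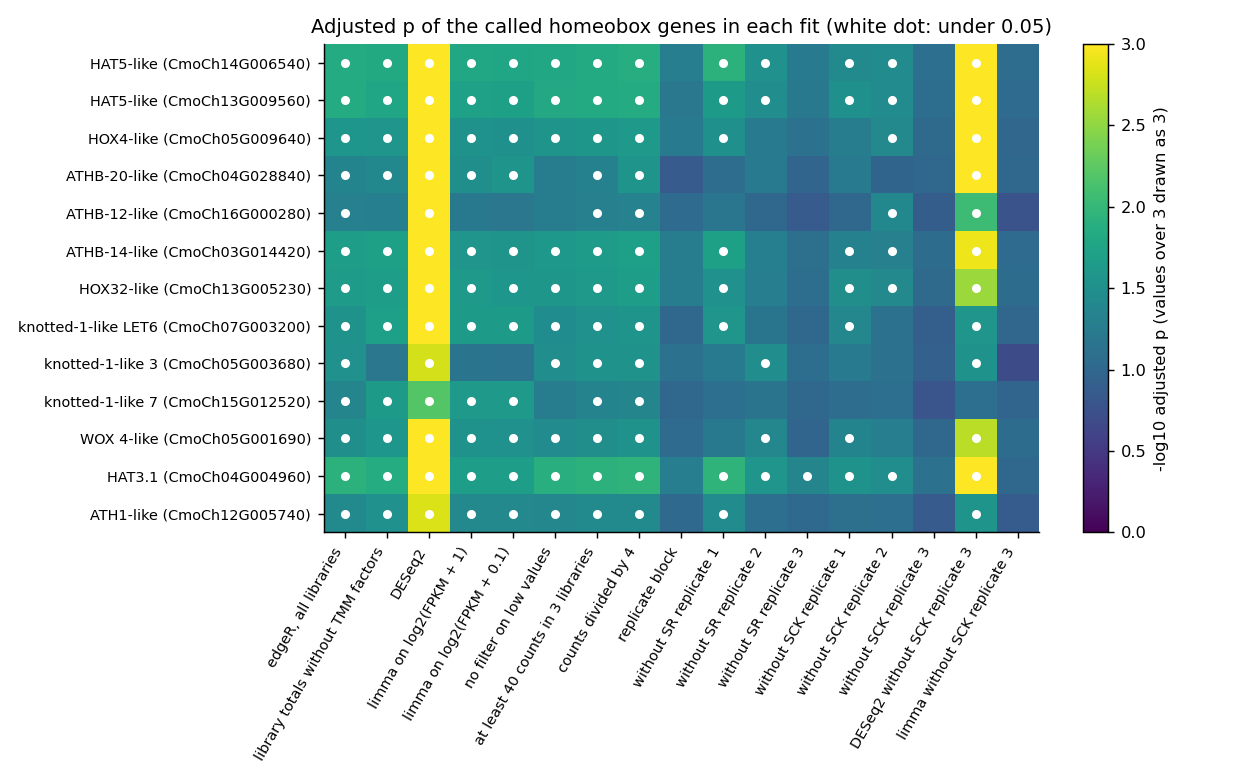
Adjusted p, drawn as -log10 by colour and capped at 3, of the 13 called homeobox genes (rows) in the edgeR fit with all libraries and in each alternative fit (columns), with a white dot where it is under 0.05. In the edgeR column without SR replicate 3 only HAT3.1 keeps a dot, and the edgeR columns with the replicate block and without SCK replicate 3 hold none.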

How the data were processed

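Poly(A) RNA of 6 hypocotyl libraries was sequenced in pairs with a mean insert of 300 bp, per the labels' protocols. The authors deposited whole-number counts and FPKM values per gene, per the file headers. HISAT and StringTie are named, per the submitters' processing notes. The sources used here give no genome build, annotation, strand setting or treatment of shared reads. In the deposited table, FPKM was 0.0001 wherever the count was 0, and is given here as 0. The count 4 occurred 1350 times, against 567 for 3 and 516 for 5, so 1 read pair may be worth 4 deposited counts. Another 6 value columns could be tied to none of the samples and were left out.

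Genes with at least 1 FPKM in at least 3 libraries were tested with edgeR 4.0.16 (glmQLFit and glmQLFTest, TMM factors, R 4.3.3), with group as the only term. An SE is the log2 fold change over the root of F. DESeq2 1.42.0 and limma 3.58.1, on log2(FPKM + 1), were alternatives. All tools were checked on simulated counts.

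Classes follow product names; HOX3-like was placed in class II and SHOOT MERISTEMLESS-like with the knotted-type genes, as in rice and Arabidopsis. The members and lists were chosen with earlier results of these data known. Named are all called genes and, in each class, the most abundant gene and the 2 with the smallest adjusted p, plus called genes of related lists; others were chosen after their values were seen. Same-numbered libraries did not deviate together, so replicate numbers were not used to pair them. No sequences were used.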

Additional observations from a re-analysis of the deposited data

How the results depend on the processing

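With all libraries, edgeR called 3375 genes, and 7 homeobox genes as rises and 6 as falls. DESeq2 called 6026 genes, with 10 homeobox rises and 9 falls. By list, DESeq2 called 6 BEL1-like genes against 3 by edgeR, 18 leaf and cotyledon markers against 10, 8 xylem markers against 4 and 5 epidermis markers against 2. Fits without 1 library gave 0 to 3437 genes, 0 to 5 homeobox rises and 0 to 7 homeobox falls. For all genes these counts were 3437, 1981 and 542 without SR replicates 1, 2 and 3 and 1576, 1667 and 0 without SCK replicates 1, 2 and 3, where 5558 had an unadjusted p under 0.05 without SCK replicate 3. Without SCK replicate 3, a choice made after seeing the data, DESeq2 called 3637 genes, with 6 and 8 homeobox rises and falls, and limma 8 genes, with 0 and 0. With a replicate block, edgeR called 0 genes, 0 homeobox rises and 0 falls, although 6564 genes and 20 homeobox genes had an unadjusted p under 0.05. Deviations of same-numbered libraries from their group means correlated at -0.15, -0.25 and 0.09 over genes for replicates 1, 2 and 3. Of these 3 correlations, 0 was the highest of its SR library, so replicate numbers were not used for pairing. With 3 libraries in each group, such correlations cannot exclude a batch shared by same-numbered libraries. Library totals, limma with either pseudocount, either other filter and counts divided by 4 kept the homeobox rises between 5 and 8 and the falls between 4 and 7. For 22 named homeobox genes the alternatives gave 352 values. Of these, 258 kept direction and side of the threshold, 86 no longer passed, 7 newly passed and 1 reversed. All 86 losses were among the 13 called genes, as the other named genes had no call to lose. The 258 include values of uncalled genes that stayed uncalled. The reversed value was that of ATHB-15-like (CmoCh08G006920), which ran from -0.010 to 0.061 in the fits without 1 library, below 0 without SR replicate 3. The cause was not tested. Depth limits the SCK levels of ATHB-20-like and MERISTEM L1, which rest on 25 deposited counts or fewer in each library.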
